A study of Mus musculus with 2 samples.

Results

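The TAL1 complex genes are 9 protein-coding genes, taken by name from the GENCODE annotation of mm10: Tal1, Lyl1, Lmo2, Lmo4, Ldb1, Tcf3, Tcf4, Tcf12 and Cbfa2t3. All 9 were found among 21853 protein-coding genes with an annotated start site. Chromatin accessibility around them was read from ATAC-seq peak lists of G1E-ER4 cells. In this assay a transposase cuts and tags DNA that is not wrapped in nucleosomes. G1E-ER4 is a mouse erythroid line of strain C57BL/6J, labelled male, that lacks its own GATA1 and in which GATA1 activity is restored by a fusion to the estrogen receptor's ligand-binding domain. There were 2 libraries, biological replicates 1 and 2, of 50000 cells each. Both were treated for 24 hours with 17Beta-estradiol at 10 nM, which switches the fusion on. There was no untreated group, so no value below is a change caused by estradiol, and all comparisons are between genes, regions, peak lists and replicates. The labels give the replicates separate biosample records of the same donor and do not say how the cultures were kept apart.

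The bHLH proteins TAL1 and LYL1 bind DNA as heterodimers with an E protein, of which TCF3, TCF4 and TCF12 are the mammalian members. The heterodimer contacts an E-box, and the LIM-only adaptor LMO2 with the LIM-binding protein LDB1 joins it to GATA1, which binds a GATA site a short helical distance away. LDB1 also brings distant elements into contact with promoters, and CBFA2T3, known as ETO2, is a corepressor that joins the complex in immature erythroid cells. The typical DNA footprint of the complex is a composite of a partial E-box and a GATA site.

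A region here is a set of overlapping peaks merged into 1 interval, and its summit is that of the peak with the largest signal, the authors' enrichment value per peak. A region belonged to a gene where it lay within 100 kb of the gene body. It was called a promoter region where its summit was within 1 kb of any protein-coding start site, and distal otherwise. The conservative list was made from both libraries and keeps peaks that pass an irreproducible discovery rate (IDR) threshold. It held 20080 regions, and 70 of them lay within 100 kb of the 9 genes. Of the 70 regions, 13 stood at a promoter of a member, 20 at a promoter of a neighbouring gene and 37 were distal. Depth was unknown, since the files hold no read counts. Each library also had its own thresholded list, of 14012 regions for replicate 1 and 15564 for replicate 2. A call in a library, below, means presence in that list, which was made from that library alone. All 70 regions passed in the list made from both libraries, also those in neither library's own list. A looser replicated list, with no IDR threshold, held 46345.

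The 4 sequences below are the strongest distal regions near members that carry the composite, searched as CTG, then 7 to 9 bases of any kind, then GATAA, on both strands within 100 bp of the summit. They are shown because they are open stretches near these genes that hold the letters of the composite. Repeat sequence was neither masked nor checked, so a match can lie within a repeat. The search set no base before GATAA. The matches in the Lmo2 and Cbfa2t3 regions printed here end in GGATAA, and those near Tal1 and Lyl1 in TGATAA or AGATAA. Sequences are from RefSeq's GRCm38.p6, the assembly that mm10 names, on the plus strand, with the composite in capitals. In the Lyl1 element both composites lie on the minus strand and read in reverse complement, as TTATC followed by CAG.
Tal1 +39.5 kb, chr4:115095787-115095987: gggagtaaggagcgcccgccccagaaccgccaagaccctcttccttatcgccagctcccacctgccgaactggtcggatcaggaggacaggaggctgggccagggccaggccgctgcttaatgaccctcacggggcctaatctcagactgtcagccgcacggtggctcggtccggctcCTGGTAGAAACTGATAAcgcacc
Lyl1 +29.5 kb, chr8:84730890-84731090: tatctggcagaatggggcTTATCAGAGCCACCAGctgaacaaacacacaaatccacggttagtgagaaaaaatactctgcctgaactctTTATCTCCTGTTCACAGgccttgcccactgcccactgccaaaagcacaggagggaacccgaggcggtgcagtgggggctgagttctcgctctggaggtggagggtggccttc
Lmo2 −69.8 kb, chr2:103888071-103888271: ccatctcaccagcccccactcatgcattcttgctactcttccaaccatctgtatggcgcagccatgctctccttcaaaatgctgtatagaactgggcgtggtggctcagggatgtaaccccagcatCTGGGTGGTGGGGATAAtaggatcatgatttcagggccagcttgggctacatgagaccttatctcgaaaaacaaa
Cbfa2t3 +80.3 kb, chr8:122618754-122618954: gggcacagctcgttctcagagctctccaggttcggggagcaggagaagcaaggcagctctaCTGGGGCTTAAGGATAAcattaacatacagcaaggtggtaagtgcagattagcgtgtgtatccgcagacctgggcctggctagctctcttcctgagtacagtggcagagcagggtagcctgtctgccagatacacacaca

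Composites also stood in 2 further distal regions and in the promoter regions of Lyl1 and Cbfa2t3. These 4 sites were chosen for printing after the values were seen. They are given as 30-base windows, written on the strand on which CTG precedes GATAA.
Tal1 −8.01 kb, chr4:115048350-115048379, plus strand: caaggcCTGCGGAAATAAGATAAcgatggg
Cbfa2t3 +13.5 kb, chr8:122685634-122685663, minus strand: accaggtCTGGCTCCAGTGATAAcaaacgg
Lyl1 promoter, chr8:84701637-84701666, minus strand: tggctgcCTGGCCGCGGCTGATAAgaagca
Cbfa2t3 promoter, chr8:122699205-122699234, plus strand: agccagCTGTGTCACAGTGATAAtgcggtg

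**Figure D1:**
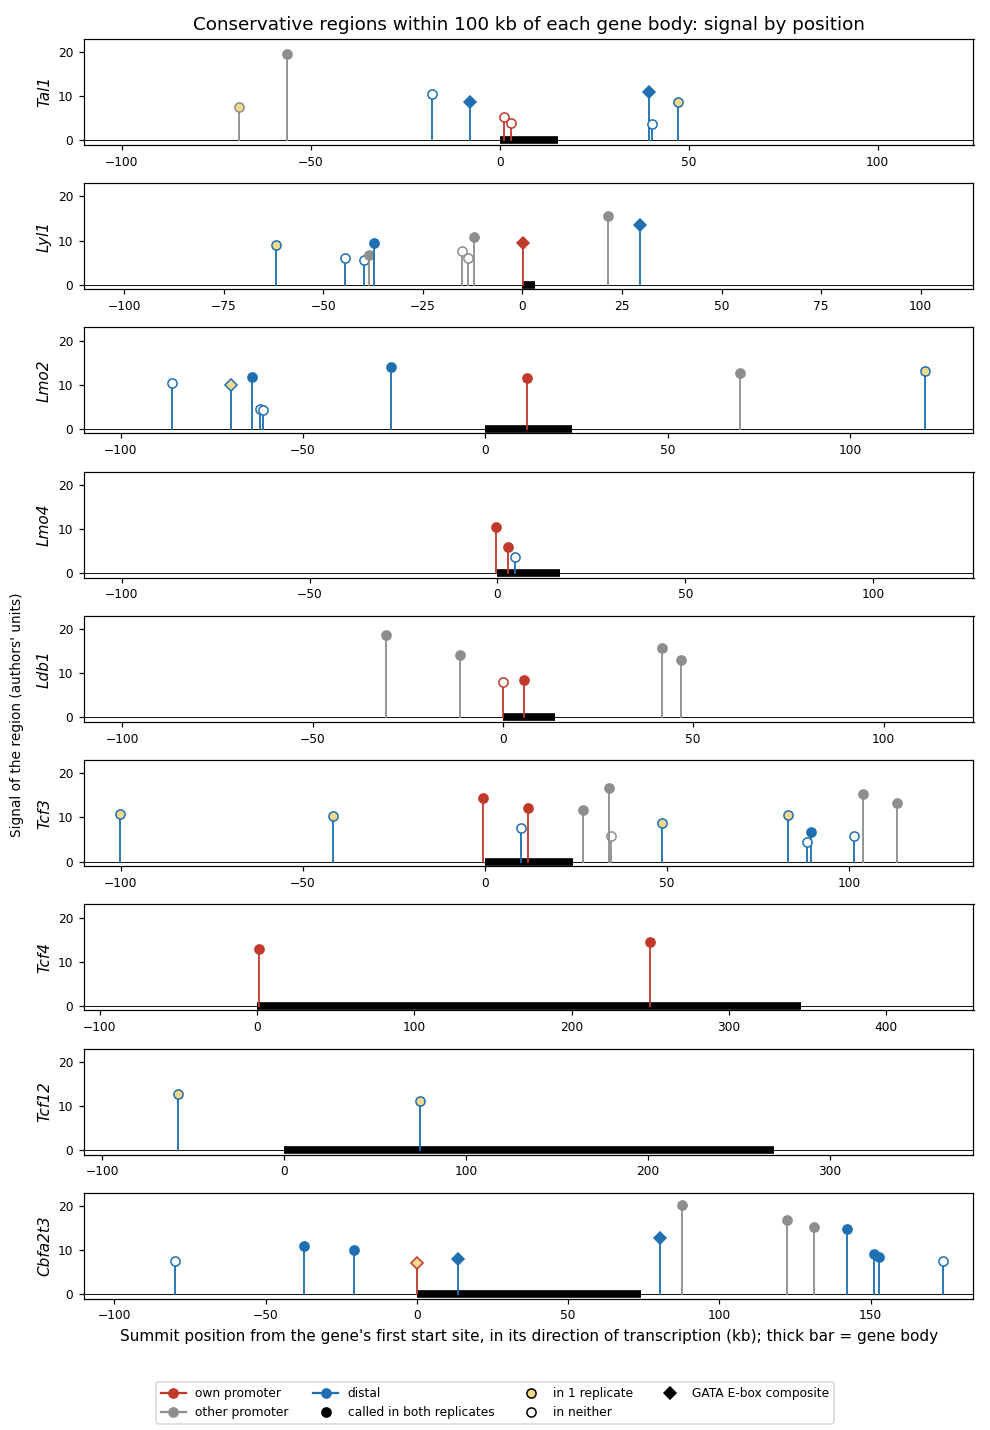
The signal of each of the 70 conservative regions (y axis, authors' units) is plotted against the distance of its summit from the first start site of the gene (x axis, kb), 1 panel per gene, with the fill of the marker showing the calls in the replicates' own lists and diamonds marking the composite. Tal1 has 2 low, unfilled promoter markers between distal regions on either side, Tcf4 has only 2 promoter regions, and Tcf12 has only 2 distal ones.

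A promoter region, meaning any overlap with the 1 kb on each side of an own start site, was present at 8 of the 9 genes in the conservative list, against 42.3% of all protein-coding genes. The exception was Tcf12. The list from pooled pseudoreplicates had promoter regions at 7 members (42.6% of all genes), and the replicated and the archived lists at all 9 (46.9% and 54.7% of all genes). Replicate 1's own list had promoter regions at 8 members (38.8% of all genes) and replicate 2's at 6 (39.9% of all genes). No test was made, since the genes were chosen by name for their role. The 13 own promoter regions had signals from 4.01 to 14.5 with a median of 9.36, below the median of 12.9 over all 9497 promoter regions. Both libraries' own lists held 9 of the 13, replicate 1 alone held 1, and 3 were in neither. Of all promoter regions, 80.7% were in both libraries' own lists.

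Tal1 lies on chromosome 4 from 115056426 to 115071755 on the plus strand, and encodes the bHLH factor after which the complex is named. Its best promoter signal was the lowest among the 8 genes with a promoter region. A region at chr4:115057262-115057602, in a UTR 1.03 kb from the first start site, had a signal of 5.34 and rank 19123 of 20080. The −log10 p there was 15.01 in replicate 1 and 14.65 in replicate 2. A second region at an internal start site, chr4:115059366-115059618, had a signal of 4.01 and rank 19908, with −log10 p of 8.71 in replicate 1 and 9.08 in replicate 2. The libraries gave close values, and neither library's own list held either region. The global IDR of the first was 0.306 in replicate 1 and 0.294 in replicate 2, above the threshold of 0.05. The list from pooled pseudoreplicates had no promoter region for Tal1, while the looser replicated list had 4.

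Of the 5 distal regions of Tal1, 4 had larger signals than either promoter region. The distal region with the largest signal, 10.98 (rank 9525), was chr4:115095524-115096438 in intergenic sequence at +39.5 kb, 7164 bp downstream of a start site of Pdzk1ip1, and an erythroid enhancer of Tal1 is known downstream of that gene. The −log10 p was 58.1 in replicate 1 and 59.2 in replicate 2, and both libraries called it. The region ranked in the top 47.4% of the conservative list by signal and in the top 13.3% by −log10 p, so its place depends on which of the authors' values is used. Its composite, printed above, has a spacing of 9 bases and is centred 86 bp from the summit. Another composite region stood upstream at −8.01 kb, chr4:115047772-115048576, with a signal of 8.67, and its −log10 p was 13.4 in replicate 1 and 24.1 in replicate 2. Both libraries called it.

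None of the 3 other distal regions of Tal1 was in both libraries' own lists. The region at −18.0 kb, chr4:115038181-115038566, lay in a coding exon of Stil, the neighbouring centriole gene, and carried a GATA motif (AGATAA). Its signal was 10.5, and neither library's own list held it, while its −log10 p was close, 13.4 in replicate 1 and 15.6 in replicate 2. The region at +47.3 kb had a signal of 8.76 and was called in replicate 2 alone, and the one at +40.2 kb had 3.77 and was called in neither. The strongest accessible site near Tal1 belonged to a neighbour, the promoter of Stil, with a signal of 19.6, rank 1143, and calls in both libraries.

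Lyl1, on chromosome 8 from 84701457 to 84704715, is the close paralog of Tal1, and its promoter was open in both libraries. The promoter region at chr8:84701203-84701930 had a signal of 9.36 and rank 12416, and the −log10 p was 31.7 in replicate 1 and 25.5 in replicate 2. Its summit lay 239 bp downstream of the start site, in the 5′ UTR, and it carried a GATA motif and the composite printed above, centred 194 bp downstream of the start. Over all promoter regions, 1.64% carried the composite and 4.18% the GATA motif within 100 bp of the summit. The annotated gene Nfix, which encodes a nuclear factor I protein, also spans this region.

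The distal region of Lyl1 with the largest signal was chr8:84730579-84731410 at +29.5 kb, in an intron of Nfix, with a signal of 13.6 and rank 5807. Its −log10 p was 30.3 in replicate 1 and 34.5 in replicate 2, and both libraries called it. It held 2 composites, of 8 and 9 bases spacing, one of them centred 3 bp from the summit. The other distal regions lay upstream around Ier2, an immediate early gene, and in Cacna1a, a calcium channel gene, and had signals from 5.57 to 9.38. Of those 4, chr8:84663944-84664301 was called in both libraries, chr8:84639290-84639761 in replicate 1 alone and the remaining 2 in neither.

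Lmo2, the LIM-only adaptor on chromosome 2 from 103957986 to 103981878, had 1 promoter region and 7 distal ones. The region at chr2:103969356-103969726 stood at the cluster of start sites 11.5 kb inside the gene, with a signal of 11.5 and rank 8695. Its −log10 p was 32.8 in replicate 1 and 49.9 in replicate 2, and both libraries called it. At the first start site the conservative list had no region, and the replicated list had a weak one with a signal of 5.87 and rank 25351 of 46345. The peaks there had −log10 p of 8.77 in replicate 1 and 13.5 in replicate 2, and neither passed the IDR threshold.

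Upstream of Lmo2, where distal enhancers are known, 6 regions stood between −85.8 and −25.8 kb. The region of largest signal, 14.1 (rank 5220), was chr2:103931914-103932397 at −25.8 kb, with E-box (CAGNTG) and KLF (CCNCNCCC) motifs and no GATA motif. Its −log10 p was 29.4 in replicate 1 and 41.1 in replicate 2. The most significant was chr2:103893700-103894240 at −64.0 kb, with GATA, E-box and KLF motifs, a signal of 11.8 and −log10 p of 47.9 in replicate 1 and 48.5 in replicate 2. Both libraries called these regions. The composite region at −69.8 kb, chr2:103888044-103888662, had a signal of 9.84 and was called in replicate 1 alone, while its −log10 p was 14.8 in replicate 1 and 14.1 in replicate 2. The other 3 upstream regions, at −85.8, −61.7 and −61.0 kb, were called in neither. Downstream, the region at chr2:104078297-104078694 in an intron of Cd59b had GATA and RUNX (TGTGGTT) motifs, a signal of 13.1 and a call in replicate 2 alone.

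Lmo4, a LIM-only paralog that also binds LDB1, lies alone on chromosome 3 from 144188530 to 144205220, with no other protein-coding gene within 100 kb. Its promoter regions were in both libraries' own lists. The region upstream of the first start site, chr3:144205405-144205753, had a signal of 10.5 and rank 10275. The −log10 p was 56.1 in replicate 1 and 53.3 in replicate 2. A region at the start sites 2.26 kb inside the gene, chr3:144201891-144202643, had a signal of 5.98, with −log10 p of 22.5 in replicate 1 and 25.3 in replicate 2, and both libraries called both regions. The only distal region, chr3:144200360-144200642, was an intronic site 1833 bp from a start site with GATA and RUNX motifs. It ranked 19966 by signal (3.76), was absent from replicate 1's full ranked list and was called in neither library's own list.

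Ldb1, which encodes the dimerizing partner of the LIM-only proteins, on chromosome 19 from 46031570 to 46045214, had 2 promoter regions and no distal region in the conservative list. At the first start site, chr19:46044999-46045413, the signal was 8.04 (rank 15062), with −log10 p of 11.1 in replicate 1 and 15.4 in replicate 2, and neither library's own list held it. At the internal start site 5.59 kb into the gene, chr19:46039455-46039809, the signal was 8.44 (rank 14286), with −log10 p of 22.1 in replicate 1 and 24.8 in replicate 2, and both libraries called it. Only the internal promoter of the pair was called in both libraries, while the signals were close. Promoters of the neighbours Nolc1, Hps6 and Pprc1 had signals of 18.6, 15.6 and 14.1, above those of Ldb1. The looser replicated list held 5 distal regions near Ldb1, the strongest of them at +30.5 kb with a signal of 7.01. Replicate 2's own list held 1 distal region and replicate 1's held none.

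The E protein genes differed from each other. Tcf3, which encodes E12 and E47, lies on chromosome 10 from 80409514 to 80433647 and had 2 promoter regions, both called in both libraries. The region at the first start sites, chr10:80433621-80434347, had the largest signal of any member promoter, 14.5 (rank 4830), with −log10 p of 45.2 in replicate 1 and 68.2 in replicate 2. The region at the internal start site 11.8 kb into the gene, chr10:80421546-80422112, had a signal of 12.1 (rank 7813), with −log10 p of 24.5 in replicate 1 and 30.3 in replicate 2. Both carried GATA, E-box and KLF motifs. The observed to expected CpG ratio within 100 bp of the summit was 0.859 for the first and 0.0619 for the internal one, against a median of 0.801 over all promoter regions. No peak of the lists read stood at the middle cluster of start sites, 2.57 kb into the gene.

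Tcf3 had 8 distal regions, but 1 alone, chr10:80344067-80344706 in an intron of Adamtsl5, was called in both libraries. It had a signal of 6.80. The 3 with the largest signals, 10.9 in an intron of Atp8b3, 10.5 upstream of Adamtsl5 and 10.4 upstream of Onecut3, were each called in a single library. Inside the gene itself, an intronic region at −1892 bp from the internal start site had a signal of 7.62 and was called in neither. No distal region near Tcf3 carried the composite.

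Tcf4, also called E2-2, spans 346 kb on chromosome 18 from 69343356 to 69689079 and has 10 clusters of start sites, defined by gaps of over 1 kb. Regions stood at 2 of the 10, and nowhere else within 100 kb in the conservative list. At the first cluster, chr18:69344011-69344693, the signal was 12.9 (rank 6656), with −log10 p of 48.4 in replicate 1 and 53.7 in replicate 2. At the cluster 249.6 kb downstream, chr18:69593129-69593751, the signal was 14.4 (rank 4918), with −log10 p of 38.2 in replicate 1 and 53.8 in replicate 2. Both were called in both libraries. The other 8 clusters had no peak in the replicated list or in either library's ranked list, and 1 of them had a weak region in the archived replicated list. The replicated list added 9 distal regions, the strongest with a signal of 5.82, at +319 kb in an intron. That list and replicate 1's own list each held 3 promoter regions of Tcf4, against 2 in the conservative list.

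Tcf12, also called HEB, spans 269 kb on chromosome 9 from 71842688 to 72111871 and had no promoter region in the conservative list. At its first start sites the peak of replicate 1 had a −log10 p of 15.4 and a signal of 8.53, and it passed that library's threshold with a global IDR of 0.037. The peak of replicate 2 had a −log10 p of 7.15 and a signal of 4.97, and it did not pass, with a global IDR of 0.486. The libraries thus fell on different sides of the threshold. The replicated list had a region there, chr9:72111762-72112168, with a signal of 8.42. Both distal regions, chr9:72036999-72037544 in an intron of Tcf12 and chr9:72169797-72170227 upstream, with signals of 11.04 and 12.8, were called in replicate 2 alone. Their −log10 p was 13.2 and 12.2 in replicate 1, and 21.9 and 23.4 in replicate 2. Neither carried a GATA motif or a composite. For Tcf12 no region was called in both libraries.

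**Figure D2:**
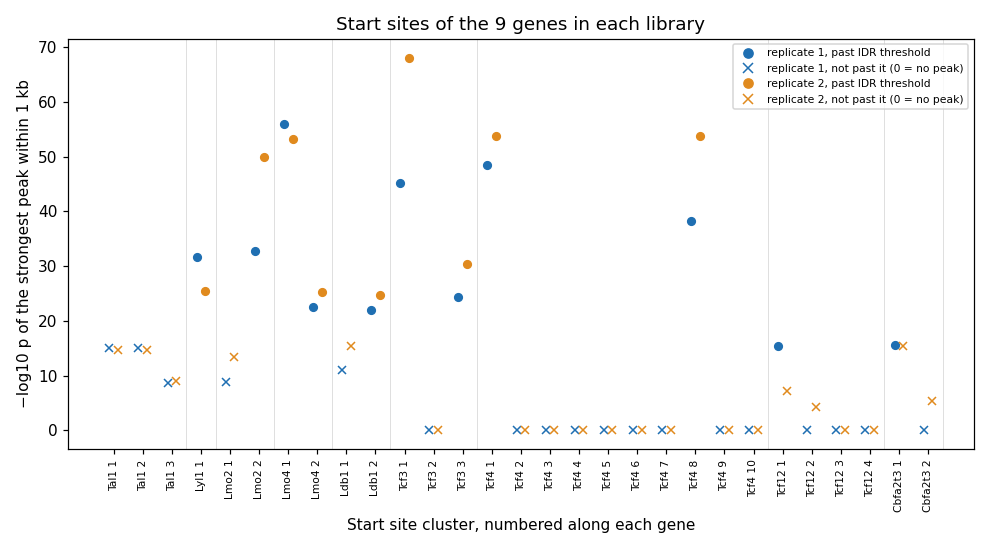
The −log10 p of the strongest peak within 1 kb of each cluster of start sites (y axis) is plotted for the 29 clusters of the 9 genes (x axis, numbered along each gene) in replicate 1 (blue) and replicate 2 (orange), with circles for peaks in that library's thresholded list, crosses for others and 0 for no peak. Tal1 has crosses only, Tcf12 has 1 circle, from replicate 1, and in Tcf4 2 of 10 clusters have peaks.

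Cbfa2t3, on chromosome 8 from 122625141 to 122699109, had 13 regions, of which 9 were distal. Its promoter region, chr8:122698990-122699422, had a signal of 7.002 and rank 17096, with −log10 p of 15.7 in replicate 1 and 15.4 in replicate 2. The libraries' values were close and the calls differed, since the global IDR was 0.049 in replicate 1 and 0.063 in replicate 2, on either side of the threshold. It carried the composite printed above, centred at −110 bp from the start site, and E-box and KLF motifs. The internal cluster of start sites, 20.4 kb into the gene, had no region in the conservative list and a weak one, with a signal of 3.51, in the replicated list. Replicate 2's ranked list had a peak there with a −log10 p of 5.40, replicate 1's had none, and the archived list had a region with a signal of 4.30.

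Among the 9 genes, Cbfa2t3 had the most distal regions within 100 kb, counted by place alone. Of its 9, 7 were called in both libraries. The strongest, chr8:122556456-122557107, with a signal of 14.8 (rank 4581), lay 142.3 kb downstream of the start site, at −5477 bp from a start of Piezo1, which encodes a mechanically gated ion channel of the red cell membrane. The −log10 p was 23.3 in replicate 1 and 36.8 in replicate 2. The composite region at +80.3 kb, beyond the 3′ end of the gene, had a signal of 12.7, with −log10 p of 20.6 in replicate 1 and 24.9 in replicate 2. The composite region in the gene's own intron at +13.5 kb, chr8:122685310-122685879, had a signal of 7.98, with −log10 p of 17.0 in replicate 1 and 23.7 in replicate 2. Upstream, regions at −20.7 and −37.2 kb had signals of 9.99 and 10.9 and were called in both libraries. In the replicated list a further intronic region at +32.6 kb, chr8:122666344-122666733, with a signal of 6.46, carried the composite as well. The annotated gene Gm20388 spans all 13 regions.

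The number of distal regions within 100 kb ranged from 0 to 9 over the members. It was 9 for Cbfa2t3, 8 for Tcf3, 7 for Lmo2, 5 for Tal1 and Lyl1, 2 for Tcf12, 1 for Lmo4 and 0 for Ldb1 and Tcf4. The median was 5, against 1 over all protein-coding genes, of which 36.6% had none. Fewer distal regions were found at 98.04% of all genes than at Cbfa2t3, at 96.6% than at Tcf3, at 94.2% than at Lmo2 and at 85.6% than at Tal1 and Lyl1. Long genes have wider windows and were searched over more sequence. The windows also held other protein-coding genes: 11 for Tcf3, 8 for Cbfa2t3 and 6 for Lyl1 and Ldb1, but 0 for Lmo4 and Tcf4. Of the 37 distal regions, 14 had a start site of the member as their nearest protein-coding one. The counts thus describe a neighbourhood, and which gene a region acts on was not tested. Per 100 kb searched, the median was 2.32 distal regions for members and 0.478 for all genes. By that measure Tcf3 stood highest among members, at 3.57, followed by Cbfa2t3 at 3.29 and Lmo2 at 3.13. The order of the genes differed between libraries. In replicate 1 alone the counts were 4 for Tcf3 and 3 for Lmo2 and Lyl1, and in replicate 2 alone 2 for Tcf3, 3 for Lmo2 and 2 for Lyl1. Cbfa2t3 led with 8 and 7.

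**Figure D3:**
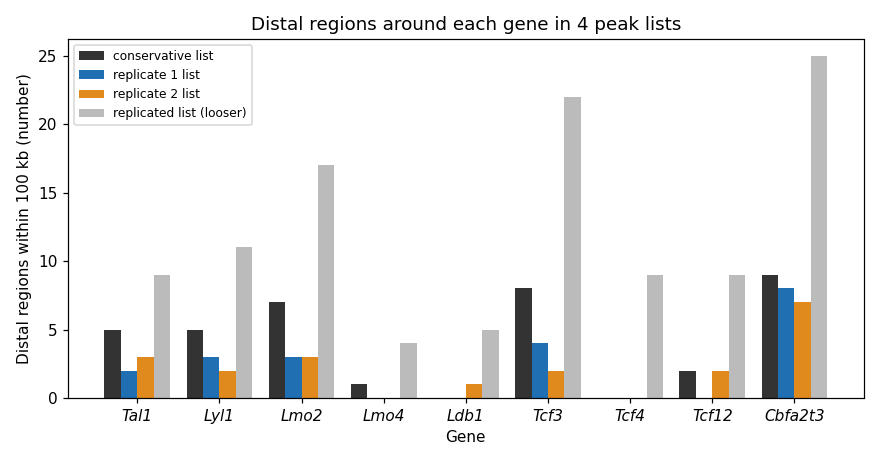
Bars give the number of distal regions within 100 kb (y axis, from 0) of each gene (x axis) in the conservative list, each replicate's own list and the looser replicated list. Cbfa2t3 is highest in all 4, and Tcf4 has bars in the replicated list only.

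The distal regions were described by place and motif. Of the 37, 15 were intergenic, 18 lay in introns, 3 in exons and 1 in a UTR, and 4 summits were within the body of a member. The composite stood in 6 of the 37 (16.2%, 95% Wilson interval 7.65 to 31.1), against 10.7% of all 10583 distal regions, a share inside that interval. The GATA motif was found in 27.0% (background 25.5%), the E-box in 37.8% (48.3%) and the KLF motif in 48.6% (33.9%). The KLF share had an interval of 33.4 to 64.1, which holds its background. The AP-1 motif (TGANTCA) was found in 8.11% (background 11.1%), the RUNX motif in 10.8% (8.21%) and the ETS motif (CCGGAAG) in 2.70% (3.16%), and a CTCF pattern in none, with 3.68% of all distal regions holding the last. The intervals cover counting error only, and a motif match is a description of the letters, not of binding. Some motifs overlap, since a composite contains the letters GATAA, which AGATAA also ends in.

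Calls in both libraries were made at 5 of the 6 distal composite regions and at 9 of the 31 without one. Over all distal regions the shares were 53.4% with the composite and 41.5% without. The exception was the Lmo2 region at −69.8 kb. The regions with a composite are few, and the 83.3% has a 95% Wilson interval of 43.6 to 97.0, which holds the background share.

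At own promoters the KLF motif stood in 10 of 13 regions, against 62.2% of all promoter regions, the E-box in 6 (29.8%), the GATA motif in 3 (4.18%) and the composite in 2 (1.64%). These counts are small, come from 8 genes and have no intervals computed. Both promoter regions of Tcf3 are among the 3 with the GATA motif. The ETS motif was in none of the 13, while 19.3% of all promoter regions had it. The median CpG ratio of the 13 was 0.741, against 0.801, and the lowest values were those of the internal Tcf3 promoter and of Cbfa2t3 (0.293).

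Calls in the single libraries were about as frequent for the 70 regions as for the whole list. Both replicates' own lists held 39 of them (55.7%, 95% Wilson interval 44.1 to 66.8), against 60.7% of all conservative regions. Replicate 1 alone held 5, replicate 2 alone 7, and 19 were in neither. Counted singly, replicate 1 held 44 of the 70 (62.9%), against 66.9% of all regions, and replicate 2 held 46 (65.7%), against 72.4%. Both shares were below those of the whole list, which lie inside the 95% Wilson intervals of 51.1 to 73.2 and 54.0 to 75.8. Distal regions were called in both at 37.8%, and promoter regions, neighbours included, at 75.8%, against 42.7% and 80.7% over the whole list. Of the 66 regions with a peak in both full ranked lists, the −log10 p was higher in replicate 2 in 50, with medians of 22.0 in replicate 1 and 24.8 in replicate 2. That is 75.8% of the 66, against 70.3% of the 19345 such regions of the whole list. Depth is unknown and can move these values. By percentile of signal within each library's ranked list, 40 of the 66 (60.6%) stood higher in replicate 2, against 59.6% over the whole list, so the members were close to all regions on both measures. The 4 regions without a peak in replicate 1's ranked list lay near Tal1, Lyl1, Lmo4 and Tcf3, with signals from 3.76 to 5.57.

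**Figure D4:**
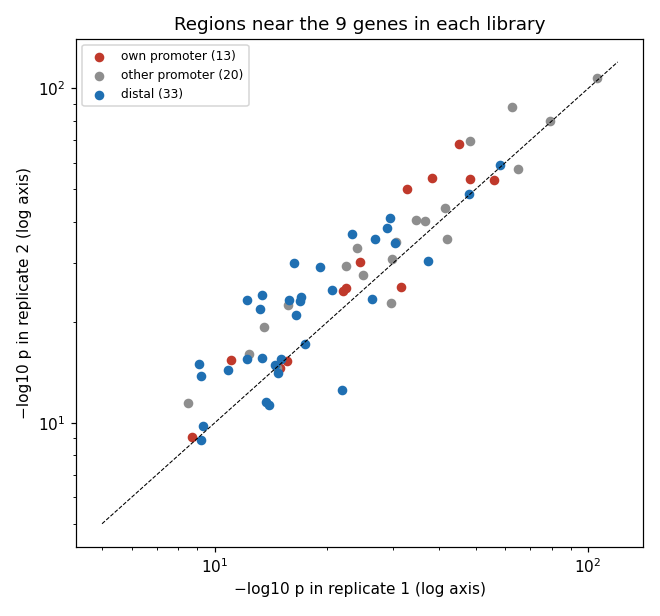
Each point is 1 of the 66 regions with a peak in both ranked lists, with its −log10 p in replicate 1 (x axis) and replicate 2 (y axis), both on log axes, coloured by class, and the dashed line marks equal values. Of the 66 points, 50 lie above the line, a share of 75.8% against 70.3% over all conservative regions, and the lowest red point, at 8.71 and 9.08, is the internal promoter of Tal1.

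Other genes of the pathway were read from lists by role, and their promoter regions in the conservative list are counted against the 42.3% of all genes given above. Among corepressors and relatives of CBFA2T3, 9 of 10 genes had one. Cbfa2t2, a paralog of Cbfa2t3, had a signal of 23.9 and rank 166, above that of Cbfa2t3, and the paralog Runx1t1 had none. Hdac1 and Rcor1, of the deacetylase and CoREST complexes, had 17.8 and 16.4. Of the GATA partners, 6 of 8 had a promoter region in the conservative list, but 3 in replicate 1's own list and 5 in replicate 2's. Cbfb (15.8), the partner of RUNX proteins, Zfpm1 (8.003), the GATA1 cofactor FOG1, and Runx1 (7.99) were called in both libraries. Klf1 (7.13), an erythroid activator, and Gata1 (7.02) were called in replicate 2 alone and Gata2 (4.90) in neither, while Gfi1b and Gfi1 had no promoter region. Among LIM domain relatives and LDB1 cofactors it was 3 of 7: Rlim, a ubiquitin ligase (20.1), Ssbp2 (13.3) and Ssbp3 (4.87). Of these, Ssbp3 was in neither library's own list. Lmo1, Lmo3 and Ldb2, the paralogs of Lmo2 and Ldb1, and Ssbp4 had no promoter region. Of the ID genes, whose proteins block E proteins, Id1 (9.95) was open in both libraries and Id3 (9.60) in neither library's own list, and Id2 and Id4 had none.

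The labelled cell type was checked by promoter regions at marker genes. In the conservative list they were present at 11 of 12 erythroid genes, the exception being Alas2, against 42.3% of all protein-coding genes. They were present at 0 of 7 myeloid, 0 of 7 lymphoid, 2 of 5 megakaryocyte and 1 of 5 fibroblast and endothelial genes. The last was Col1a1, which was in neither library's own list. Of the 12 erythroid genes, each library's own list held 9 (38.8% of all genes in replicate 1 and 39.9% in replicate 2). Hbb-bt and Klf1 were called in replicate 2 alone, and Slc4a1 and Hemgn in replicate 1 alone. No value here measures RNA or protein.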

How the data were processed

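ATAC-seq peak lists of 2 libraries of 1 group, replicates 1 and 2, were read on mm10, per the labels. Per the file headers in the deposited list of files, the authors derived peak lists from single libraries and from both, using an exclusion list as an input. The aligner, the peak caller, their versions and any correction for the transposase's offset were not given in the sources used here. The deposited signal is the authors' enrichment per peak, of scaling not stated, and was used within lists only. The deposited −log10 p is the authors' value per peak, and global IDR is deposited as −log10 in the ranked lists of each library. In all, 10 lists were read: the conservative, pooled, replicated and archived replicated lists, and the thresholded, looser and ranked lists of each replicate. The archived list came from other inputs than the released ones.

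Overlapping peaks were merged and placed against 54329 protein-coding start sites of GENCODE M21 on GRCm38, whose chromosome lengths hold every peak. Regions were called in a replicate where at least 50% of the shorter region overlapped its own list. Depth per sample is unknown, so no value has a read-count interval, and the intervals given with shares are 95% Wilson intervals. Motifs were searched within 100 bp of the summit. Values of single libraries came from each library's own ranked list, not from the ranked list of true replicates as planned, because the replicate columns of that list carry no sample name. The interval and motif code was tested on simulated data. Python 3.11.15, scipy 1.17.1 and pysam 0.24.0 were used. The members, gene lists and motifs were chosen with earlier results of these data known. Named were all 9 members, their promoter regions, the 3 distal regions of largest signal each and every distal composite region, and other regions were named after their values were seen. With 1 group, no test between groups and no genes of like pattern were sought. Alternatives changed the list, threshold, window, start sites, overlap and motif settings. A list of related bHLH genes is not reported here.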

Additional observations from a re-analysis of the deposited data

How the results depend on the processing

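No paired analysis was possible because both libraries belong to 1 group. The count of 8 members with a promoter region was 6 to 8 when either replicate's own list stood alone, 7 in the pooled list and 9 in the replicated list, and fell to 3 above the median signal. The 70 regions became 160 in the replicated list and 31 above the median signal, and 46 to 48 in a single library. The 37 distal regions became 111 in the replicated list, 11 above the median signal and 19 within 50 kb, and 20 in either library alone. The composite share of 16.2% was 25% in replicate 2's list (5 of 20) and 30% in replicate 1's (6 of 20). Of all distal regions of those lists, 11.4% and 12.5% had the composite. The single-library shares rest on few regions, and no intervals were computed for them. The share near members was 9.91% in the replicated list (8.67% of all), 29.7% over whole regions (15.04% of all) and 5.41% with a spacing of 8 bases only. The share called in both replicates, 55.7% (60.7% of all regions), was 24.4% for the replicated list and 87.1% above the median signal. It was 94.3% against the looser lists of each replicate. Values over all genes or regions were not computed for these alternatives, the 8-base spacing or the promoter count above the median signal. Shifts with such settings are thus not read as particular to the members. Of 72 counts of distal regions for single members, 39 stayed within 1.5 times. Ranking by −log10 p in place of signal, chosen after seeing the data, moved the most significant distal region of Lmo2 from the top 41.3% to 23.3% and that of Tcf12 from 34.2% to 62.1%. Unknown depth limits every absence: a site without a region was not detected in these lists.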
